A study of Mus musculus with 12 samples.

Results

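The metallothioneins Mt1 and Mt2, their regulator Mtf1 and 5 zinc transporters (Slc39a4, Slc39a14, Slc39a8, Slc30a1 and Slc30a10) were described in mouse liver under STZ, with and without MENS. These 8 genes, of 17742 with a named probe on the array, were taken by symbol from the platform annotation, and their probe was chosen by brightness, as the mean intensity over all 12 arrays. The choice between probes mattered for Mtf1 alone, which had 2. The genes themselves were chosen with earlier results of these data known, and the differences of Mt1, Mt2 and Slc39a4 between STZ and Control were among them, so these are given as a description with no test. STZ+MENS against Control reuses the same Control samples and STZ+MENS against STZ the same STZ samples. No call of these genes is read in these comparisons either. The 3 groups were livers of mice given STZ (streptozotocin, a toxin of the insulin-producing beta cells of the pancreas) and then MENS (STZ+MENS), livers of mice given STZ alone (STZ) and livers of mice with no treatment (Control). The labels do not spell out MENS. They say that it was delivered by a printed circuit board that a MENS device powered, for 1 h a day on 5 days a week over 6 weeks. All mice are labelled as 8 weeks old, without saying whether this was at the start or at sampling, and the labels name no strain, sex or dose of STZ. Each group held 2 liver samples, numbered 1 and 2 as in the labels' source names, each measured on 2 one-colour arrays. The titles number them differently (Control1 and Control6, MENS1 and MENS6, STZ4 and STZ10), without saying what these numbers stand for. They may mark animals, but the labels do not say that the samples came from separate animals, so a p-value here covers no more than the spread among these samples, which may be technical.

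Metallothioneins are small cysteine-rich proteins that bind zinc, copper and cadmium in the cytosol. Zinc enters the cytosol through proteins of the Slc39 (ZIP) family and leaves it, out of the cell or into organelles, through the Slc30 (ZnT) family. The zinc finger factor Mtf1 senses free zinc and switches on Mt1, Mt2 and Slc30a1 through short metal response elements. In liver, Mt1 and Mt2 are also known to respond to glucocorticoids and to IL-6 acting through Stat3, and Slc39a14 is the importer known to carry zinc into hepatocytes during an acute phase response.

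Upstream sequence was printed for the genes whose induction is known to run through metal response elements. The core searched was TGCACNC or TGCGCNC, on either strand, in the 250 bases before each start in RefSeq's GRCm38.p6. There, 6 of the 8 members had 7 such windows. For Mt1, Slc30a1 and Slc39a8 these starts lay inside the gene as the RefSeq gene table places it. Upstream here means before the start used. Mt2 held 3 cores (positions -223 to -217, -128 to -122 and, on the opposite strand, -50 to -44, counted back from the start), and its whole window is shown with the cores in capitals. It lies on the plus strand at chr8:94172368-94172617.
Mt2 upstream: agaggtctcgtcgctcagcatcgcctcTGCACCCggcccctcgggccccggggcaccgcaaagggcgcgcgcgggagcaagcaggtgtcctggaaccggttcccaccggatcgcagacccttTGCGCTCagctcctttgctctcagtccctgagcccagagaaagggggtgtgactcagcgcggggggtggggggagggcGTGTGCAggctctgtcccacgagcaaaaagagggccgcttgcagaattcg
Mt1 held 1 core at positions -23 to -17. Its window, chr8:94178839-94179088, lay mostly inside the gene, which the gene table places at chr8:94178883-94180327. Sequence further before the gene's first base was not searched, so this is no count of cores for the Mt1 promoter. The 30 bases around the core, at chr8:94179054-94179083 on the plus strand, are shown.
Mt1 upstream: gcggtcccgctgTGCACACtggcgctccag
Slc30a1, the zinc exporter of the cell surface, held 1 core on the opposite strand at positions -43 to -37. The 30 bases around it lie at chr1:191906726-191906755 on the plus strand. These bases are inside the gene, which the gene table places at chr1:191906697-191913248.
Slc30a1 upstream: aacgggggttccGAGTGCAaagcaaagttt
Slc30a10 held 3 matches, of which 2 overlap on opposite strands, Mtf1 held 0, and of the 2 Slc39a8 windows 1 held a single match. Both Slc39a8 windows (chr3:135825029-135825278 and chr3:135825407-135825656) lay inside the gene (chr3:135816882-135888572). Of all 32536 such windows in the RefSeq table, 21.5% held at least 1 core, 5.21% at least 2 and 1.28% at least 3. The antioxidant response element, searched as TGACNNNGC on either strand, occurred in 10.2% of all windows. It was present in the Mt2 window (TGACTCAGC, positions -79 to -71), in that of Slc30a1 and in 1 of the Slc39a8 windows, and it did not overlap a metal response core there. These matches describe letters in a window and do not show that a factor was bound.

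The 12 arrays resembled each other closely: across genes, arrays of 1 sample correlated at 0.986 to 0.996, arrays of the 2 samples within a group at 0.976 to 0.988 and arrays from different groups at 0.958 to 0.985. These are correlations across genes, which are not independent replicates. The hepatocyte markers Alb, Ttr and Apoa1, products that liver secretes, had intensities between 415100 and 538500 in all 6 samples. The other 3 hepatocyte markers measured, Apob, Cps1 and Tdo2, were also bright but lowest in STZ+MENS sample 1, with 19070, 26180 and 40530 there and at least 61110, 72960 and 79480 in the other 5 samples. With 2 samples a group, few genes passed an adjusted p of 0.05 over all genes in limma. The share was 0.00564% of genes (1 gene) for STZ against Control, 0% for STZ+MENS against STZ and 0.00564% (1 gene) for STZ+MENS against Control, and 0 of the 8 members passed in any of the 3. At an unadjusted p under 0.05 the numbers of genes were 3012, 4509 and 3193. The 1 gene called in both comparisons with Control was Top2b, and its call rested on values below 0 on 1 array of both Control samples. In bulk liver, fewer cells of a type and less RNA per cell cannot be told apart.

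Mt2 was far brighter in both STZ groups than in Control. Its mean intensities were 38510 and 45892 in the STZ+MENS samples, 40058 and 50267 in the STZ samples, and 1145 and 2986 in the Control samples. All samples of both STZ groups lay above both Control samples, and the STZ+MENS and STZ samples overlapped. On the log2 scale Mt2 averaged 15.36 ± 0.18 in STZ+MENS, 15.45 ± 0.23 in STZ and 10.89 ± 0.95 in Control (SD, n = 2 each). STZ exceeded Control by 4.56 ± 0.42 (SE), a 23.6-fold difference, which ranked 2 of all genes by size. STZ+MENS differed from STZ by -0.10 ± 0.42, with a 95% interval of -1.12 to 0.92 and a limma adjusted p of 0.906. This interval does not show that the groups were alike, and the sign turned when STZ+MENS sample 1 (0.025) or STZ sample 2 (0.064) was left out. STZ+MENS exceeded Control by 4.46 ± 0.42, or 22.0-fold (limma adjusted p = 0.111). The Control samples were the widest apart of the groups, and the size of the difference depended on them. Without Control sample 1 STZ exceeded Control by 3.89 and STZ+MENS by 3.79. Without Control sample 2 these were 5.23 and 5.13.

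Mt1, the neighbouring metallothionein on chromosome 8, was brighter in STZ than in Control and brighter again in STZ+MENS. It reached 141851 and 217913 in the STZ+MENS samples, 82130 and 94407 in the STZ samples, and 20023 and 23794 in the Control samples. The 3 groups did not overlap. Its log2 level was 17.41 ± 0.43 in STZ+MENS, 16.43 ± 0.14 in STZ and 14.42 ± 0.18 in Control (SD, n = 2 each). The difference between STZ and Control was 2.01 ± 0.23 (SE), or 4.03-fold. STZ+MENS lay above STZ by 0.98 ± 0.23, or 1.98-fold, which did not pass in limma (adjusted p = 0.0804). STZ+MENS lay above Control by 2.99 ± 0.23, or 7.97-fold (limma adjusted p = 0.0944). No call of Mt1 is read in the comparison of STZ+MENS with Control under any setting, since it reuses the Control samples. On the log2 scale STZ+MENS sample 1 lay above the Control mean by 2.692 and STZ+MENS sample 2 by 3.296.

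The 2 metallothionein probes did not keep a constant offset. The log2 level of Mt1 minus that of Mt2 was 1.88 and 2.23 in the STZ+MENS samples, 1.04 and 0.91 in the STZ samples, and 4.07 and 2.98 in the Control samples. Since the probes differ in brightness for the same amount of RNA, only the change of this difference between samples can be read, and it was smallest in STZ and largest in Control, with no overlap of the 3 groups. It was not tested. Of the other metallothioneins, Mt3, known mainly from brain, was dim, with 88.5 and 86.3 in STZ+MENS, 114 and 139 in STZ, and 153 and 132 in Control. Mt4, known from stratified epithelium, was also dim, with 51.8 and 203 in STZ+MENS, 240 and 158 in STZ, and 43.8 and 63.6 in Control. Neither passed over all genes in any comparison. At these intensities the offset of 50 narrows the differences, and Mt4 differed by 1.25 ± 0.43 between STZ and Control (limma adjusted p = 0.23).

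**Figure D1:**
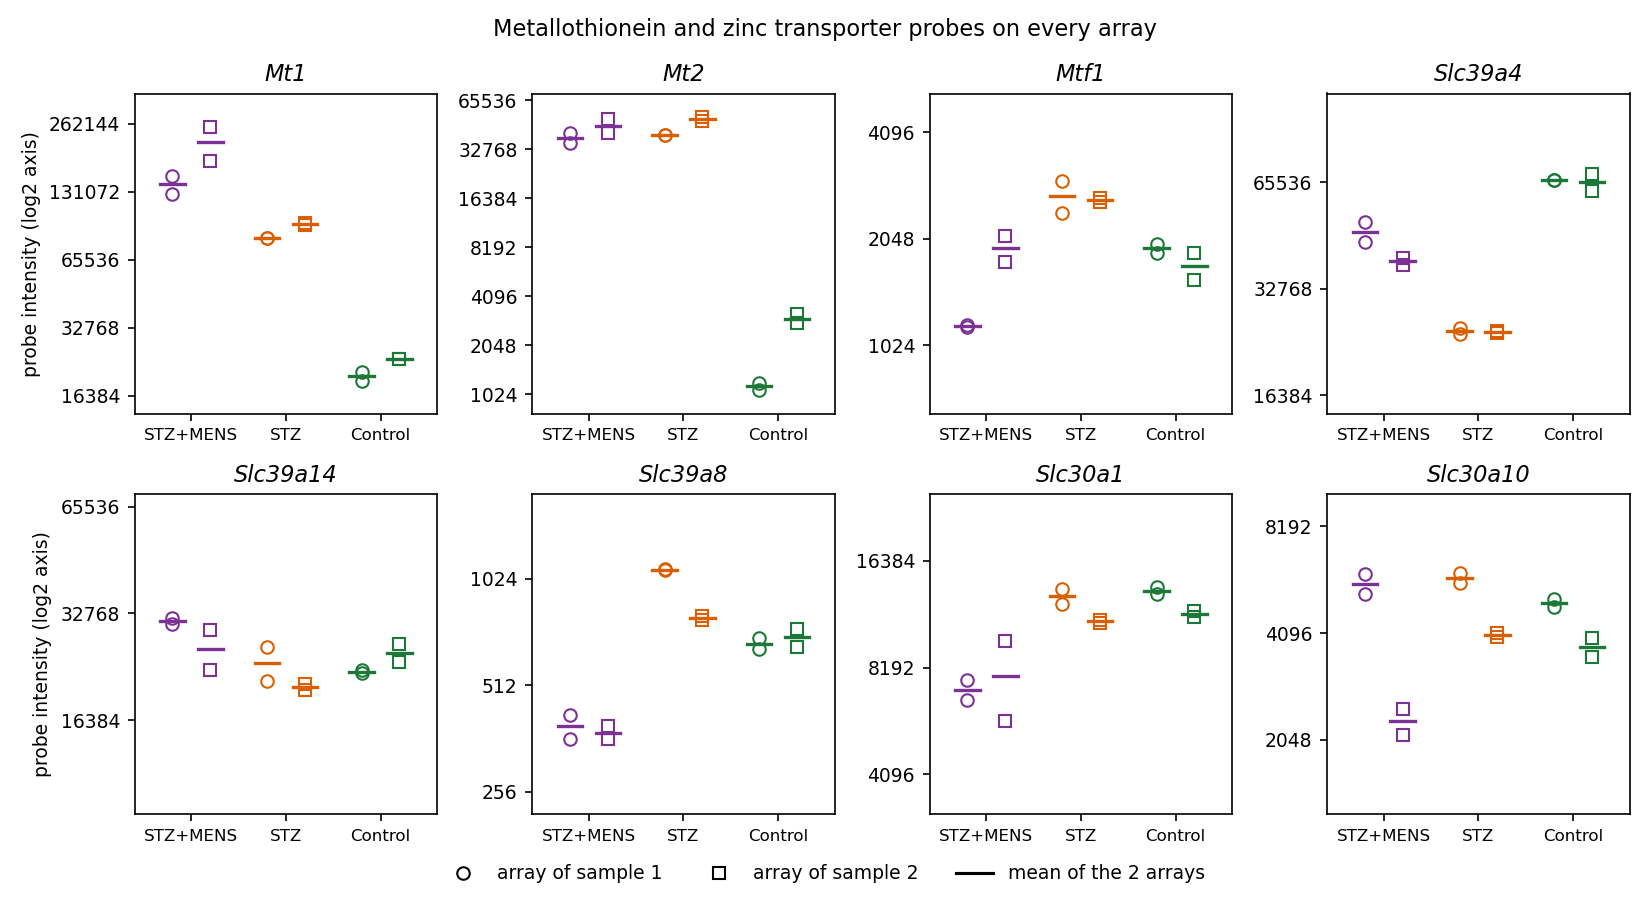
Intensity of the 8 members on each array, on a log2 axis, for STZ+MENS (left), STZ (middle) and Control (right). Circles are arrays of sample 1, squares are arrays of sample 2 and bars are means of the 2 arrays of a sample. Mt1 and Mt2 are high in both STZ groups, Slc39a4 is highest in Control, and Slc39a8 and Slc30a1 are lowest in STZ+MENS.

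Mtf1, the zinc-sensing factor, gave different pictures on its 2 probes. The brighter probe had 1164 and 1924 in STZ+MENS, 2703 and 2629 in STZ, and 1927 and 1715 in Control. Both STZ samples lay above the other 4 samples, and STZ+MENS sample 1 was the lowest. STZ+MENS differed from STZ by -0.81 ± 0.24 (SE) on the log2 scale and STZ from Control by 0.54 ± 0.24, with limma adjusted p-values of 0.116 and 0.326. STZ+MENS differed from Control by -0.27 ± 0.24 (adjusted p = 0.61), a sign that rests on STZ+MENS sample 1, since without it the difference was 0.077. The difference between STZ+MENS and STZ was -0.46 (adjusted p = 0.273) without STZ+MENS sample 1 and -1.16 (adjusted p = 0.0263) without STZ+MENS sample 2. Averaging the 2 probes gave -0.39 (adjusted p = 0.186) for STZ+MENS against STZ and 0.18 for STZ against Control. On the dimmer probe the samples lay close together, with 223 and 207 in STZ+MENS, 216 and 201 in STZ, and 235 and 248 in Control. That probe differed by 0.033 ± 0.13 between STZ+MENS and STZ, and by -0.17 ± 0.13 between STZ and Control (limma adjusted p = 0.902 and 0.568 over all 26423 probes).

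Genes other than the metallothioneins and Slc30a1 whose expression is known to depend on Mtf1 in mouse were measured for all 5 on the list. Over all genes, 0 of the 5 passed in any comparison. At an unadjusted p under 0.05, 2 were higher and 0 lower in STZ against Control, and 1 was higher and 3 were lower in STZ+MENS against STZ. Of all genes, 8.48% were higher and 8.49% lower at that level in STZ against Control, and 12.6% and 12.8% in STZ+MENS against STZ. The median difference over the list was 0.22 and -0.82, beside -0.018 and 0.055 over all genes. The list includes Slc39a10, which Mtf1 is known to hold down, so its counts and medians give no direction of Mtf1 activity. The median of 0.22 is the value of Slc39a10 itself. Ndrg1, a stress-responsive gene, had 2723 and 2570 in STZ+MENS, 4910 and 4542 in STZ, and 2041 and 2277 in Control. Its groups did not overlap: STZ exceeded Control by 1.11 ± 0.14 (SE), and STZ+MENS lay below STZ by -0.82 ± 0.14 (limma adjusted p = 0.0677 and 0.0596). Gclc, the catalytic subunit of the enzyme that starts glutathione synthesis, had 11400 and 21680 in STZ+MENS, 27100 and 43910 in STZ, and 14240 and 12280 in Control. STZ exceeded Control by 1.38 ± 0.36 and STZ+MENS lay below STZ by -1.13 ± 0.36 (limma adjusted p = 0.163 and 0.127). Slc39a10, an importer that Mtf1 is known to hold down, was lowest in STZ+MENS, with 334 and 336 there, 792 and 584 in STZ, and 604 and 555 in Control. It differed by -0.92 ± 0.18 between STZ+MENS and STZ (limma adjusted p = 0.0644). The selenoprotein gene Selenow differed the other way in this comparison, by 0.90 ± 0.25, and Csrp1 by 0.20 ± 0.25 (limma adjusted p = 0.102 and 0.661).

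**Figure D2:**
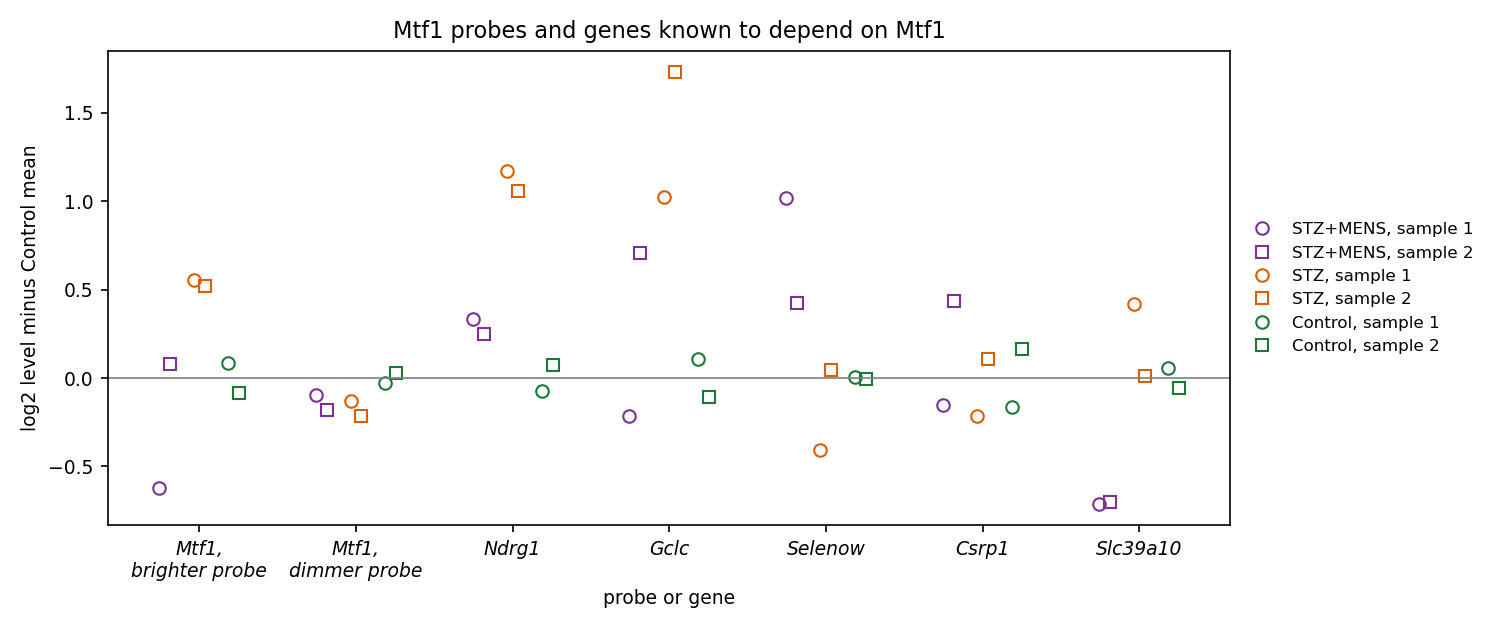
Level of the 2 Mtf1 probes and of 5 genes known to depend on Mtf1, as the log2 level of each sample minus the mean of the 2 Control samples. Circles are sample 1 and squares sample 2, with STZ+MENS, STZ and Control from left to right. Ndrg1 and Gclc are highest in STZ, Slc39a10 is lowest in STZ+MENS, and the dimmer Mtf1 probe lies near the Control mean in all samples.

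Slc39a4, the importer of the gut whose loss in humans causes acrodermatitis enteropathica, was lower in STZ than in Control and intermediate in STZ+MENS. It had 47387 and 39110 in the STZ+MENS samples, 24950 and 24748 in the STZ samples, and 66520 and 65500 in the Control samples. The 3 groups did not overlap, with STZ lowest and STZ+MENS between STZ and Control. Its log2 level was 15.39 ± 0.19 in STZ+MENS, 14.60 ± 0.0081 in STZ and 16.01 ± 0.017 in Control (SD, n = 2 each). STZ differed from Control by -1.41 ± 0.15 (SE), a 2.65-fold lower level. STZ+MENS lay above STZ by 0.79 ± 0.15 and differed from Control by -0.62 ± 0.15 (limma adjusted p = 0.0644 and 0.137). The first of these was 0.65 (adjusted p = 0.169) without STZ+MENS sample 1 and 0.93 (adjusted p = 0.0333) without STZ+MENS sample 2. Its spread between samples (pooled SD 0.112 on the log2 scale) was below the median of all genes (0.173).

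Slc39a8, an importer that also carries manganese, was dim and lowest in STZ+MENS. It had 392 and 376 in STZ+MENS, 1085 and 792 in STZ, and 670 and 698 in Control, with no overlap of the groups. STZ+MENS differed from STZ by -1.17 ± 0.18 (SE), or 2.26-fold lower, with a limma adjusted p of 0.0596. The difference was -1.20 (adjusted p = 0.151) without STZ+MENS sample 1 and -1.15 (adjusted p = 0.0395) without STZ+MENS sample 2. STZ+MENS differed from Control by -0.76 ± 0.18 and STZ from Control by 0.42 ± 0.18 (limma adjusted p = 0.132 and 0.311). The last was 0.20 without STZ sample 1 and 0.63 without STZ sample 2. Slc39a14, the importer of zinc, iron and manganese in hepatocytes, varied little: it had 31215 and 26024 in STZ+MENS, 23760 and 20309 in STZ, and 22418 and 25371 in Control. The STZ and Control samples overlapped, and both STZ+MENS samples lay above the other 4. The differences were 0.37 ± 0.17 for STZ+MENS against STZ, -0.12 ± 0.17 for STZ against Control and 0.25 ± 0.17 for STZ+MENS against Control. None passed in limma (adjusted p = 0.231, 0.766 and 0.494), and their 95% intervals were -0.039 to 0.79, -0.53 to 0.29 and -0.16 to 0.66.

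Slc30a1, whose expression is known to follow zinc through Mtf1, was not higher in either STZ group than in Control. It had 7098 and 7774 in STZ+MENS, 13047 and 11068 in STZ, and 13505 and 11625 in Control. STZ and Control overlapped, and both STZ+MENS samples lay below all others. STZ differed from Control by -0.061 ± 0.16 (SE), with a 95% interval of -0.45 to 0.33 and a limma adjusted p of 0.886. The sign of this difference turned when Control sample 1 (0.047) or STZ sample 2 (0.057) was left out. STZ+MENS differed from STZ by -0.71 ± 0.16 and from Control by -0.78 ± 0.16 (limma adjusted p = 0.0735 and 0.125). The 2 arrays of STZ+MENS sample 2 read 9749 and 5799, a gap of 0.74 on the log2 scale, while those of the other 5 samples lay within 0.18 of each other.

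Slc30a10, known as an exporter of manganese from liver and brain cells, had no difference between groups beyond its spread. It had 5647 and 2309 in STZ+MENS, 5869 and 4047 in STZ, and 4981 and 3734 in Control, and the 3 groups overlapped. Its pooled SD between samples was 0.588 on the log2 scale, the widest of the 8 members. The differences were -0.43 ± 0.43 (SE) for STZ+MENS against STZ, 0.18 ± 0.43 for STZ against Control and -0.25 ± 0.43 for STZ+MENS against Control (limma adjusted p = 0.57, 0.876 and 0.809). Without STZ+MENS sample 2 the first and the third turned to 0.21 and 0.38. Without Control sample 2 the second was -0.031, and without STZ sample 1 it was -0.089. STZ+MENS sample 2 was also low in Alas2, an erythroid gene of heme synthesis, with 103800 and 9156 in STZ+MENS, 32450 and 55200 in STZ, and 78240 and 94980 in Control. The other erythroid gene measured, Slc4a1, had 1053 and 174 in STZ+MENS, 173 and 164 in STZ, and 1402 and 717 in Control. Alas2 was thus lowest in STZ+MENS sample 2, while Slc4a1 was as low in both STZ samples as there. The part of erythroid cells in the Slc30a10 value was not tested.

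**Figure D3:**
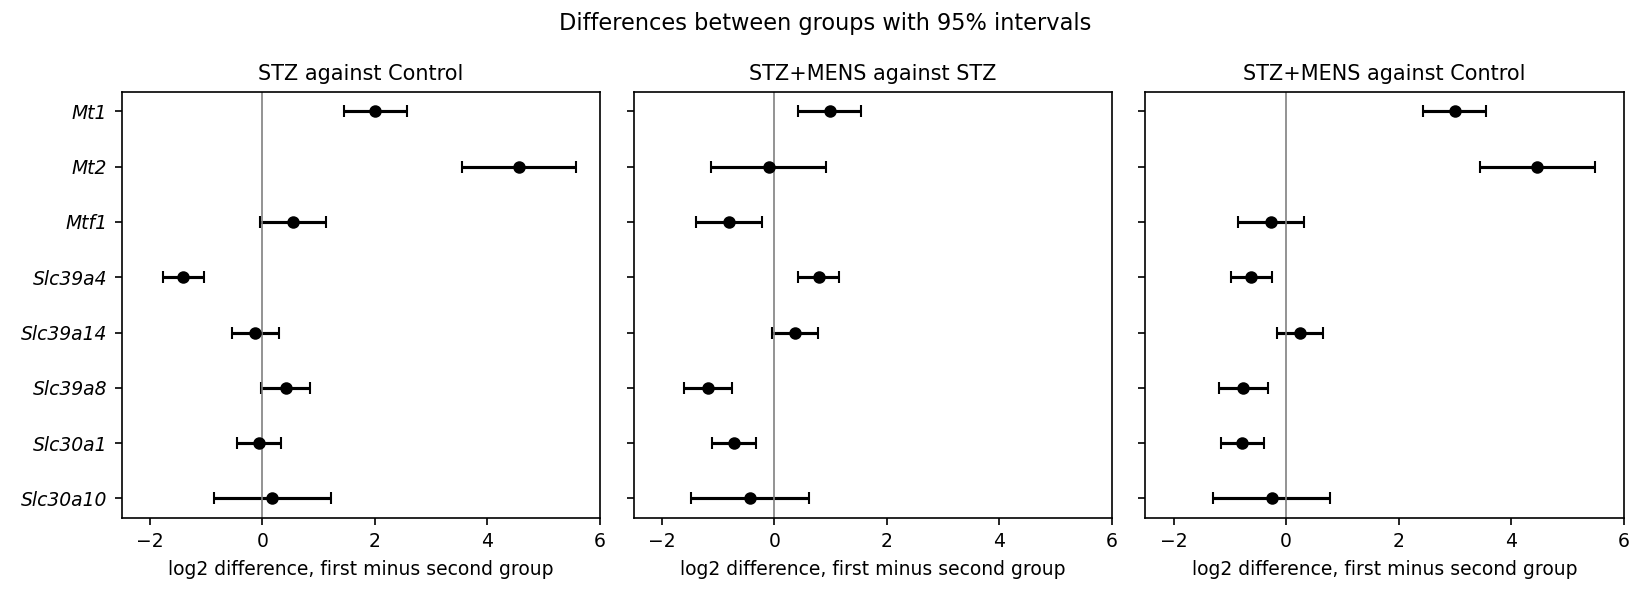
Log2 differences of the 8 members with 95% intervals from the limma fit, for STZ against Control, STZ+MENS against STZ and STZ+MENS against Control, each as the first minus the second group. Mt1 and Mt2 lie above 0 in both comparisons with Control, and Slc39a8 and Slc30a1 lie below 0 in both comparisons of STZ+MENS.

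Across the 8 members, 3 had an unadjusted p under 0.05 in STZ against Control, beside 17% of all genes, and 5 had samples that did not overlap between the groups, beside 52.1%. These 3 were Mt1, Mt2 and Slc39a4, whose differences were known when the genes were chosen, so nothing is read from that count. In STZ+MENS against STZ, 5 members (Mt1, Mtf1, Slc39a4, Slc39a8 and Slc30a1) had an unadjusted p under 0.05, beside 25.4% of all genes, and 6 did not overlap, beside 57.9%. Mt1 and Slc39a4 are among these 5, and the STZ samples are those of the comparison known at the choice. Nothing is read from this count. In STZ+MENS against Control, 5 members (Mt1, Mt2, Slc39a4, Slc39a8 and Slc30a1) had an unadjusted p under 0.05, beside 18%, and 6 did not overlap, beside 48.6%. Mt1, Mt2 and Slc39a4 are among these 5. The Control samples are those of the comparison known at the choice, so nothing is read from this count either. The comparisons share samples, so the counts are not independent of each other. Mt1 and Slc39a4 were the members whose values in STZ+MENS lay above STZ at that level, and Mtf1, Slc39a8 and Slc30a1 lay below it.

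The rest of the 2 transporter families was set beside the members. In all, 14 Slc39 and 9 Slc30 genes were measured, members included, and 0 of the 23 passed over all genes in any comparison. In STZ+MENS against STZ, 15 of the 23 were lower and 8 higher, with a median difference of -0.19, beside 0.055 over all genes. At an unadjusted p under 0.05, 7 were lower and 2 higher, beside 12.8% of all genes lower and 12.6% higher. In STZ against Control, 12 were lower and 11 higher, with 2 lower and 0 higher at that level and a median of -0.012. Of the Slc30 genes, 4 of 9 were lower in STZ+MENS against STZ at that level, and their median was -0.49.

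Slc30a5, which loads zinc into the secretory pathway, had 5047 and 7865 in STZ+MENS, 13240 and 13160 in STZ, and 12210 and 13590 in Control. The STZ+MENS samples lay below the other 4, and the difference from STZ was -1.09 ± 0.21 (SE, limma adjusted p = 0.0663). Its partner in that transport, Slc30a6, differed by -0.61 ± 0.17, and Slc30a9, a mitochondrial member, by -0.68 ± 0.13 (limma adjusted p = 0.102 and 0.066). In STZ against Control these 3 differed by 0.034, -0.097 and 0.036. Among the importers, Slc39a6 differed by -0.83 ± 0.27 and Slc39a13, a transporter of vesicles and the Golgi, by 0.58 ± 0.20 between STZ+MENS and STZ (limma adjusted p = 0.135 and 0.142).

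**Figure D4:**
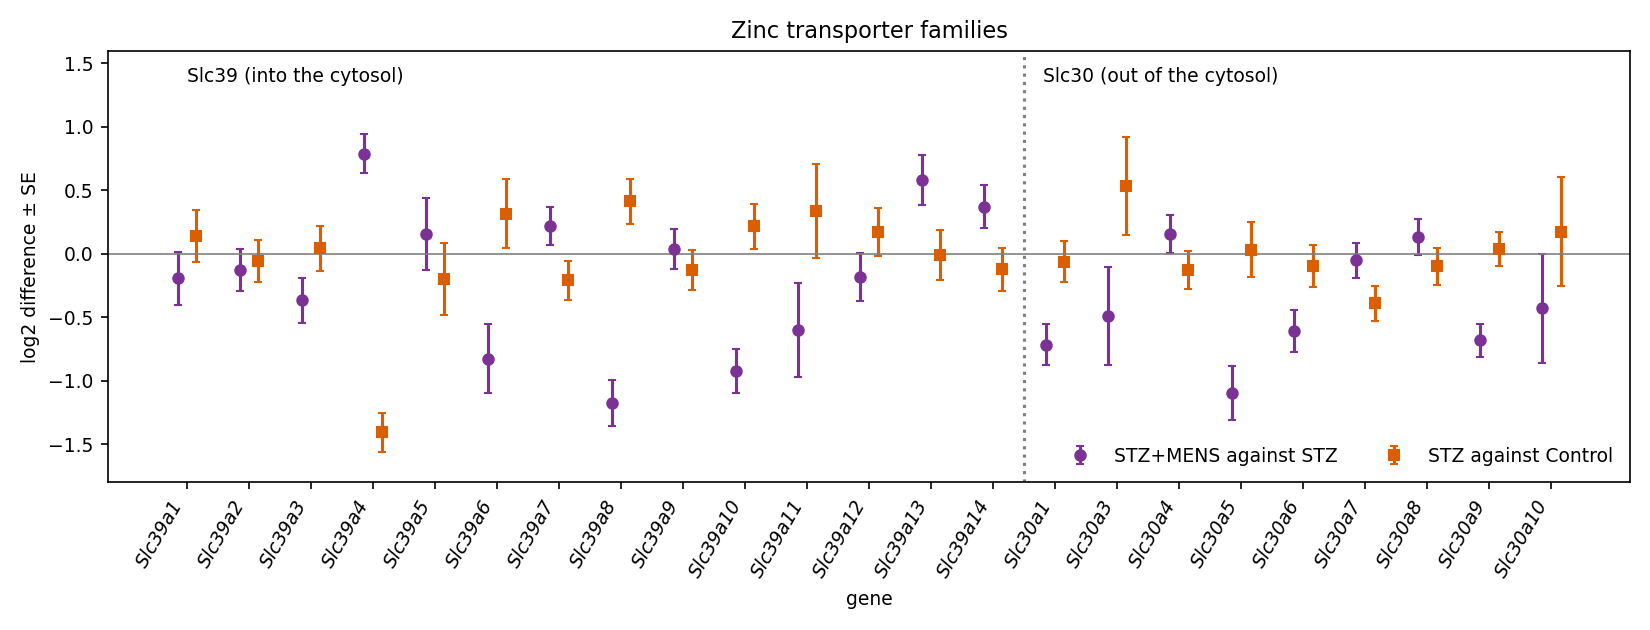
Log2 difference ± SE of the 14 Slc39 and 9 Slc30 genes measured, for STZ+MENS against STZ (circles) and STZ against Control (squares). Most STZ against Control values lie near 0 apart from Slc39a4 at -1.41, and 15 of the 23 STZ+MENS against STZ values lie below 0.

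Lists for other metals were counted in the same way, and 0 genes of any of them passed over all genes in limma. At an unadjusted p under 0.05, each count stands beside 8.48% of all genes higher and 8.49% lower in STZ against Control, and 12.6% higher and 12.8% lower in STZ+MENS against STZ. Of 11 measured copper handling genes, 3 were higher and 3 lower in STZ+MENS against STZ at that level, and 1 was higher and 0 lower in STZ against Control. Atp7a, a copper pump of the secretory pathway, had 442 and 658 in STZ+MENS, 1756 and 1936 in STZ, and 1714 and 1508 in Control. It differed by -1.68 ± 0.21 (SE) between STZ+MENS and STZ, with a limma adjusted p of 0.0596. The copper transporter Slc31a2 differed by -0.97 ± 0.17 and the copper chaperone of cytochrome oxidase Sco2 by 0.52 ± 0.18 in this comparison (limma adjusted p = 0.0596 and 0.15). Of 10 iron handling genes, 1 was higher and 3 were lower in STZ+MENS against STZ, and 0 reached that level in STZ against Control. Hjv, a co-receptor upstream of hepcidin, differed by 0.84 ± 0.13 between STZ+MENS and STZ. The iron regulatory proteins Ireb2 and Aco1 differed by -1.27 ± 0.20 and -0.66 ± 0.21.

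Glucocorticoids and IL-6 are known inducers of hepatic metallothionein, and lists of genes responsive to them were read beside Mt1 and Mt2. Of 12 glucocorticoid-responsive genes, 4 were higher and 0 lower in STZ against Control at an unadjusted p under 0.05, and 1 was higher and 6 were lower in STZ+MENS against STZ. Beside them stand 8.48% of all genes higher and 8.49% lower in the first comparison, and 12.6% and 12.8% in the second. Their medians were 0.030 and -0.45. Zbtb16, a transcription factor gene induced by glucocorticoids, had 1802 and 3284 in STZ+MENS, 9943 and 7630 in STZ, and 502 and 1432 in Control. STZ exceeded Control by 3.28 ± 0.50 (SE) and STZ+MENS differed from STZ by -1.83 ± 0.50 (limma adjusted p = 0.0935 and 0.1). Per1, a clock gene, exceeded Control by 0.57 ± 0.19 in STZ and exceeded STZ by 0.54 ± 0.19 in STZ+MENS (limma adjusted p = 0.218 and 0.147). Tat, tyrosine aminotransferase, differed by -0.11 ± 0.23 and -1.17 ± 0.23 in these comparisons (limma adjusted p = 0.849 and 0.0663). Among these 3 genes, named by their p-values, the order of the groups differed, and this is not read for the rest of the list.

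Of 16 measured genes of IL-6 signalling and the acute phase, 2 were higher and 2 lower in STZ against Control at that level, and 1 was higher and 0 lower in STZ+MENS against STZ. Beside them stand the same shares of all genes, 8.48% and 8.49% in STZ against Control and 12.6% and 12.8% in STZ+MENS against STZ. Stat3, the factor that IL-6 activates, had 2564 and 2294 in STZ+MENS, 2873 and 2980 in STZ, and 1473 and 1738 in Control. STZ exceeded Control by 0.85 ± 0.15 (SE, limma adjusted p = 0.11). Il6ra, a subunit of the IL-6 receptor, exceeded Control by 0.80 ± 0.30 in STZ, and Apcs, an acute phase pentraxin of the mouse, differed by -1.91 ± 0.46 (limma adjusted p = 0.254 and 0.154). The part of either pathway in the metallothionein values was not tested.

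The genes whose pattern over the 6 samples was most like that of Mt2 and of Slc39a4 were taken among 1340 genes with a mean intensity of at least 200 and group means that spanned at least 1 on the log2 scale. The measure was Pearson's r over 6 samples, given as a description, since the samples fall into groups. For Mt2 they were Srrm4 (0.992), Nfkbia (0.991), Stag3 (0.990), Lgals2 (0.980) and Top2b (0.974). Top2b had values below 0 on 1 array of both Control samples, as given above, and its likeness to Mt2 rests on these values. Nfkbia, which encodes an inhibitor of NF-kappaB, had log2 levels of 16.1 and 16.35 in STZ+MENS, 16.13 and 16.14 in STZ, and 14.87 and 15.16 in Control. Like Mt2, it was high in both STZ groups, which overlapped, and low in Control. For Slc39a4 they were Capn8 (0.999), Rps23rg1 (0.996), Adgrf1 (0.993), Hhex (0.990) and Ntrk2 (0.987). Hhex, a homeobox gene, had log2 levels of 13.31 and 13.03 in STZ+MENS, 12.19 and 12.11 in STZ, and 13.88 and 14.2 in Control.

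Markers of the cell types a liver sample can hold were read beside the members. Of 7 cholangiocyte markers, 3 (Krt19, Tspan8 and Anxa13) were higher and 0 lower in STZ against Control at an unadjusted p under 0.05, by 1.25 ± 0.24, 1.47 ± 0.28 and 1.69 ± 0.34 (SE), beside 8.48% of all genes higher and 8.49% lower. The mean log2 level of the list was 10.08 to 10.35 in STZ+MENS, 10.46 to 10.64 in STZ and 9.69 to 9.93 in Control. Of 6 measured hepatocyte markers, 2 were lower and 0 higher in STZ+MENS against STZ, beside 12.8% of all genes lower and 12.6% higher: Apob by -2.12 ± 0.51 and Cps1 by -1.27 ± 0.48, with Apob at 19070 and 61110 in STZ+MENS, 177100 and 118400 in STZ, and 162300 and 157000 in Control. Their list mean was 16.83 in STZ+MENS sample 1 and 17.58 in sample 2, 18.06 and 17.68 in the STZ samples, and 17.92 and 17.89 in the Control samples. It was thus low mainly in STZ+MENS sample 1. In STZ against Control, the Kupffer cell and sinusoidal endothelial lists had 0 members higher and 0 lower at that level, the neutrophil list had 0 higher and 1 lower, and the lymphocyte and stellate lists each had 1 higher and 1 lower. In STZ+MENS against STZ, the Kupffer cell and stellate lists each had 1 higher and 1 lower, the endothelial list 2 higher and 0 lower, the lymphocyte list 1 higher and 0 lower, and the neutrophil list 0 of either. Of 6 pancreatic genes, 1 was higher and 1 lower in STZ against Control, and of the 2 measured erythroid genes 1 was lower and 0 higher. No cholangiocyte or hepatocyte marker was at 0. The part of these cells in the values of the members was not tested.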

How the data were processed

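Total RNA from 6 mouse liver samples was amplified, labelled with Cy5 and hybridised to 12 Phalanx Mouse OneArray arrays, per the labels' protocols. The deposited values are linear probe intensities that the authors had already processed: array medians lay between 768.89 and 770.33, and 44 to 52 of 26423 probes per array were below 0. How background and normalization were handled is not given in the sources used here. Per the submitters' processing notes, limma 3.30.7 was among the tools. Samples were grouped by the treatment label, and 0 value columns were left unmapped.

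Values below 0 were set to 0, the log2 of the intensity plus 50 was used, and differences of dim genes are therefore understated. Precision is limited by the number of samples, 2 a group. Gene names came from the platform annotation, with symbols updated through a RefSeq gene table (GRCm38.p6). Of 20377 named probes, 18213 had a current symbol and 2126 matched by synonym. The brightest probe stood for each of 17742 genes. Array pairs were averaged per sample, and all 3 groups entered 1 fit over all genes (limma 3.58.1, lmFit and eBayes, R 4.3.3; 3 residual and 3.19 prior degrees of freedom). Tests were 2-sided with Benjamini-Hochberg adjustment over all genes and a threshold of 0.05, and were tested on simulated data. Exact permutation of 2 against 2 samples was left out because its smallest p is 0.33. Differences carry the model's SE, group means their SD. The 3 comparisons share samples.

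The members and gene lists were chosen with earlier results of these data known. All 8 members were named, and of each other list the 3 genes with the smallest unadjusted p in any comparison. Alb, Ttr, Selenow and Csrp1 were named after their values were seen. The 5 genes most like Mt2 and the 5 most like Slc39a4 by Pearson's r were named, leaving out predicted genes. Samples are numbered 1 and 2 in the labels' source names, while the titles give the STZ samples other numbers (STZ4 and STZ10) than the Control and MENS samples, and no label ties samples across groups. Samples with the same source-name number did not deviate together (correlations -0.070, -0.031 and 0.0050 across genes), so the numbers were not taken as pairs. Alternatives changed the offset, dim-gene filter, probe choice, normalization, handling of arrays, groups in the fit, prior, replicate block and each sample left out. Plots were drawn with matplotlib 3.10.9 in Python 3.11.15.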

Additional observations from a re-analysis of the deposited data

How the results depend on the processing

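Each result was recomputed under 19 other settings. The count of genes past the threshold depended on the setting. For STZ against Control it was 1 with the settings described, 0 with an offset of 200, 1204 with the 12 arrays fitted and the sample as a random block, 4 on first arrays and 0 on second arrays only, 181 with only the 2 groups compared, and 0 to 181 when 1 sample was left out (leaving out either STZ+MENS sample is the fit of only the 2 groups, so its 181 is no further evidence). For STZ+MENS against STZ it was 0, against 3079 with the random block, 30 on second arrays only, and 0 to 1759 with 1 sample left out, the highest without STZ+MENS sample 2. For STZ+MENS against Control it was 1, against 0 with an offset of 200, 1336 with the random block, 3 on first arrays, 0 on second arrays, 2 with only the 2 groups compared, and 0 to 12 with 1 sample left out. Without the 73 genes whose arrays of a sample differed by over 3 on the log2 scale, a setting chosen after seeing the data, the count was 0 in both comparisons with Control. With the sample number of the source names as a replicate block the counts were 1, 0 and 1, and it changed no call of a member. Where 1 sample was left out, the lone sample of its group was assumed to vary like the others. For STZ against Control, where the members were chosen with results known, no call of Mt1, Mt2 or Slc39a4 is read under any setting, and the other 5 members passed in none. STZ+MENS against Control reuses the Control samples and STZ+MENS against STZ the STZ samples. No call of these genes is read in these comparisons either. With the random block, 5 members passed for STZ+MENS against STZ (Mt1, Mtf1, Slc39a4, Slc39a8 and Slc30a1), and Slc39a8 passed for STZ+MENS against Control. That fit takes its residual degrees of freedom from the 12 arrays rather than the samples. Its p-values can therefore be too small, and no conclusion is drawn from its passes or counts. Signs reversed only where 1 sample was left out. Over those 6 settings, Mt2 for STZ+MENS against STZ ranged from -0.26 (no STZ sample 1) to 0.064 (no STZ sample 2), and was 0.025 with STZ+MENS sample 1 removed. Mtf1 for STZ+MENS against Control ranged from -0.62 (no STZ+MENS sample 2) to 0.077 (no STZ+MENS sample 1). Slc30a1 for STZ against Control ranged from -0.18 (no STZ sample 1) to 0.057 (no STZ sample 2), and was 0.047 with Control sample 1 removed. Slc30a10 ranged from -0.089 (no STZ sample 1) to 0.44 (no STZ sample 2) for STZ against Control, where it was -0.031 with Control sample 2 removed. It ranged from -1.07 to 0.21 for STZ+MENS against STZ and from -0.89 to 0.38 for STZ+MENS against Control, lowest with STZ+MENS sample 1 removed and highest with STZ+MENS sample 2 removed. With all samples, the 95% interval of each of these differences held 0. In the 19 settings Mt1 for STZ against Control ranged over 1.89 to 2.14, Mt2 over 3.89 to 5.23 and Slc39a4 over -1.43 to -1.38. Dim probes (Slc39a8, Mt3, Mt4 and the second Mtf1 probe) are the most limited by background. The cause of these dependences was not tested.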
